A study of Drosophila melanogaster with 2 samples.

Results

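The Polycomb and Trithorax group genes described here are 32 of the 17683 FlyBase genes annotated on X, 2L, 2R, 3L, 3R and 4. They were taken by name and not by any measured value, though earlier results of these data were known when they were listed. Of the names, 31 are symbols of the annotation, and calypso was found through a synonym of its current symbol, caly. The 20 repressive genes encode Polycomb group proteins, and the 12 activating genes encode Trithorax group proteins. ChIP-seq located CTCF on the chromatin of intact embryos, 0 to 16 h old and of mixed sex, from a transgenic Drosophila melanogaster line that stably expresses CTCF with GFP fused to its C terminus, and GFP was the target of the antibody. The samples are 2 biological replicates of that 1 group, numbered 2 and 3. Embryos lacking the fusion were not analysed here, so the part of antibody background in these peaks was not tested, and the design gives no contrast between conditions. Which promoter drives the fusion, and whether untagged CTCF was also present, are not given in the labels. In a whole embryo, strong binding in few cells and weak binding in many cannot be told apart.

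Polycomb and Trithorax group proteins keep developmental genes, the Hox genes among them, silent or active through cell division. The Polycomb repressive complexes PRC1 and PRC2 modify histones H2A and H3 and compact chromatin, and in flies they are brought to Polycomb response elements by DNA-binding proteins such as Pho. Trithorax group proteins include histone methyltransferases of the COMPASS family and the chromatin remodellers BAP and PBAP, which are built around the ATPase Brahma. CTCF binds DNA through zinc fingers and is found at insulators, including those of the bithorax complex, where Polycomb-repressed domains meet active ones.

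Tagged CTCF had a summit near a start of 15 of the 32 genes. A summit is the point of highest signal in a peak, the reproducible peaks are the 5443 that passed the authors' threshold on agreement between replicates, and near means within 1 kb of an annotated transcript start. The 15 genes are 46.9% of the list, beside 24.4% of all genes and 27.3% of the 13945 protein-coding genes. Of the repressive genes 8 of 20 (40.0%) had such a summit, and of the activating genes 7 of 12 (58.3%). The difference between both sides was not tested. The genes on the list are longer than most, with a median length of 6812 bp beside 2166 bp over protein-coding genes, and have a median of 1 transcript start as protein-coding genes do. The members were listed with earlier results of these data known, so the counts describe the list and were given no test.

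**Figure D1:**
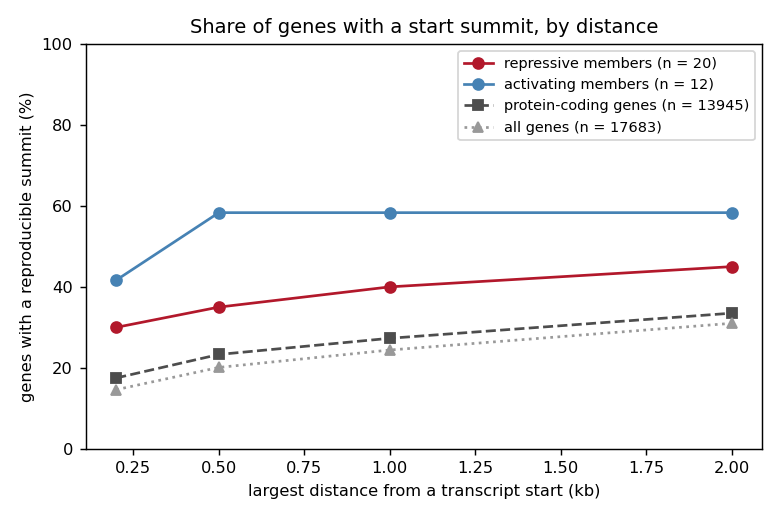
Percentage of genes with a reproducible CTCF-GFP summit (y axis) against the largest distance allowed from a transcript start (x axis, kb), for the repressive and the activating genes and for protein-coding and all genes. The activating genes stay at 58.3% from 0.5 kb outwards and the repressive genes reach 40.0% at 1 kb, where the shares over protein-coding and all genes are 27.3% and 24.4%.

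The summits at these genes were of moderate strength. Strength is the signal value of the authors' peak caller, a score whose scale is not stated, and it serves below only for order and description. The strongest start summit of the 15 genes had a signal between 213 and 1025 with a median of 429, beside a median of 331 over the 4317 genes of the annotation that had one. The highest value over all genes was 59120, so no start of a gene on this list carried one of the very strong CTCF sites. The 15 genes had 19 distinct start summits, or 17 with overlapping peaks merged, and no summit was shared between members.

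**Figure D2:**
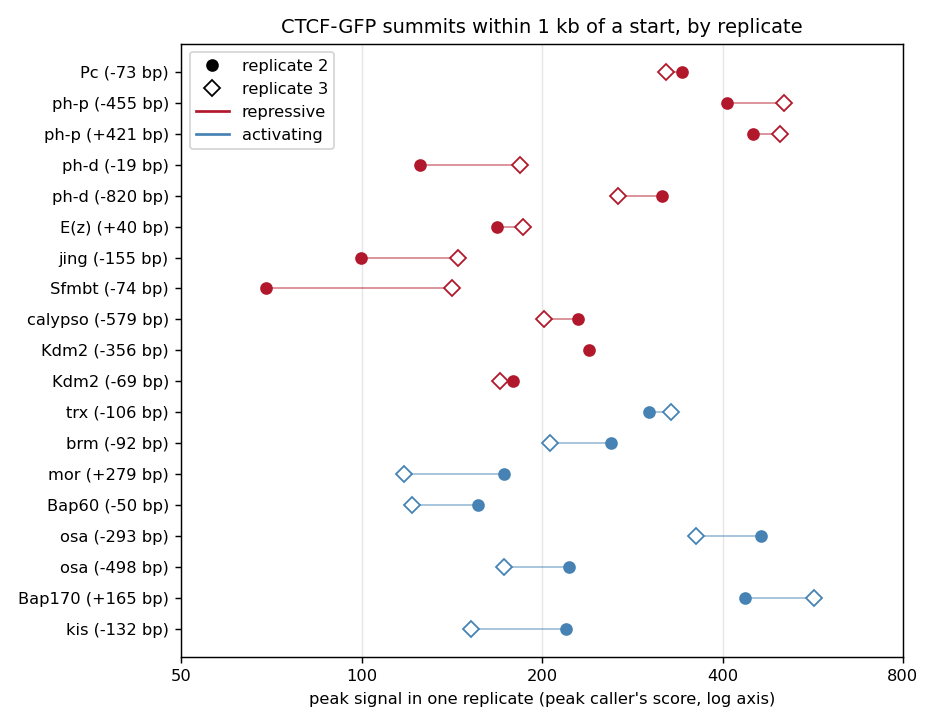
Signal of each of the 19 start summits (rows, with the distance from the gene's nearest start, negative upstream) in replicate 2 (filled circles) and replicate 3 (open diamonds), on a log axis. Bap170, ph-p and the stronger summit of osa lie highest in both replicates; the upstream summit of Kdm2 has no replicate 3 summit within 100 bp and shows 1 point.

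Of the 6 PRC1 genes, 3 had start summits, those of the Polyhomeotic and Polycomb proteins, where 27.3% of protein-coding genes had one. The RING finger genes and Su(z)2 had none, and the difference between these small groups was not tested. The neighbouring genes ph-p and ph-d encode the Polyhomeotic subunits, which polymerise through a SAM domain. The gene ph-p (X, 2126210 to 2138371, minus strand) had a pair of summits between its annotated starts. The one in a 5' UTR, 421 bp downstream of a start, had a pooled signal of 943, with 450 in replicate 2 and 499 in replicate 3. The other, in an intron and 455 bp upstream of the next start, had 911, with 407 and 507. These were the strongest start summits of the repressive genes in both replicates, and they ranked 1125 and 1155 of 5443.

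For ph-d (X, 2115727 to 2123286, minus strand) the stronger summit lay 820 bp upstream of the start, and its pooled signal was 584 (replicate 2, 316, and replicate 3, 268). A weaker one lay 19 bp upstream of the start, with 298 (125 and 184). The order of both summits was thus the same in each replicate. Pc (3L, 21306138 to 21318020, minus strand), whose chromodomain protein reads the methyl mark left by PRC2, had 1 summit 73 bp upstream of its only start, with 647 (342 and 322). The replicates differed there by less than for most members, with a log2 ratio of replicate 3 to replicate 2 of -0.09.

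Psc and Sce encode the RING finger proteins of PRC1, Sce being the ubiquitin ligase for histone H2A, and Su(z)2 is a paralog of Psc. None of these genes had a reproducible summit near a start, and neither did Scm, whose product binds Polyhomeotic through its SAM domain. The nearest reproducible summits were 4225 bp from a start of Psc (822), 5100 bp from Su(z)2 (255), 4475 bp from Sce (282) and 6788 bp from Scm (300).

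Of the 7 PRC2 genes, E(z) and jing had start summits (28.6%, beside 27.3% of protein-coding genes) and the remaining 5 had none. E(z) (3L, 10634575 to 10638130, minus strand) encodes the H3 methyltransferase of the complex. Its summit lay in the 5' UTR, 40 bp inside the start and 56 bp from the start of Cnep1r2, with 342 (168 in replicate 2 and 186 in replicate 3). The gene jing (2R, 6502006 to 6621792, plus strand), which encodes a zinc finger cofactor of the complex, had a summit of 235 (99.7 and 145) that lay 155 bp upstream of an internal start. The value at E(z) lies above the median of 323 over reproducible summits near any start, and that at jing below it. No reproducible summit was near a start of esc or escl, which encode the WD40 subunit that binds methylated H3, of Su(z)12, a core zinc finger subunit, of the histone chaperone gene Caf1-55 or of the accessory factor gene Pcl. Very strong peaks lay farther off, 12838 bp from the start of esc (9865) and 13119 bp from that of escl (13132).

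The other repressive complexes each had some members with a start summit and some without, where 27.3% of protein-coding genes had one. Pho and Phol bind DNA and bring PRC2 and PRC1 to response elements. Neither pho nor phol had a reproducible summit near a start, the nearest being 46085 bp away for pho (463) and 1531 bp for phol (767). Their partner gene Sfmbt (2L, 13169649 to 13176785, minus strand) had the weakest start summit of the list, 74 bp upstream, with 213 (69.1 in replicate 2 and 141 in replicate 3). It also had the largest spread between replicates, with a log2 ratio of 1.03.

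Calypso and Asx form the deubiquitinase that removes ubiquitin from histone H2A. The calypso gene (2R, 16194062 to 16196333, minus strand) had a summit 579 bp upstream with 429 (229 and 201), but that summit was nearer to CG42837, 130 bp away. Asx had none within 9224 bp of its starts. Kdm2 (3R, 9052495 to 9063245, plus strand), a demethylase gene whose product joins Psc and Sce in the dRAF complex, had 2 summits upstream. That at 69 bp had 365 (179 and 170). That at 356 bp had 399 and a match in replicate 2 (239) but none within 100 bp in replicate 3. The peaks of both summits overlap and counted as 1 when overlapping peaks were merged.

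On the activating side, 5 of 6 genes of the Brahma remodellers had a start summit, as did trx, which is 1 of 4 COMPASS-family genes, and kis. The share over protein-coding genes was 27.3%, and the difference between these small groups was not tested. Bap170 (2R, 6636512 to 6642358, plus strand) encodes a subunit found only in PBAP. It had the strongest start summit of the whole list in the pooled signal and in replicate 3. The Bap170 summit lay in the 5' UTR, 165 bp inside the start and 415 bp from the start of Trap1, with 1025 (436 in replicate 2 and 568 in replicate 3). In replicate 2, summits of osa (463) and ph-p (450) were higher. The gene osa (3R, 17687818 to 17718350, minus strand), which encodes the subunit found only in BAP, had a summit 293 bp upstream with 817 (463 and 361) and a second one 498 bp upstream with 371 (222 and 172). In both replicates the nearer summit of osa was the stronger. The peaks of both osa summits overlap and counted as 1 when overlapping peaks were merged.

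The shared subunits had weaker start summits. The ATPase gene brm (3L, 15970082 to 15982869, minus strand) had one 92 bp upstream, with 456 (260 and 206), that was also 174 bp from Arl1. The scaffold gene mor (3R, 15968134 to 15972913, minus strand) had one in an intron, 279 bp inside the start, with 290 (173 and 118). At Bap60 (X, 13157445 to 13159508, minus strand) the summit was 50 bp upstream, with 268 (156 and 121), and 46 bp from the start of CG12096, so it could belong to either gene. Replicate 2 was the higher at all these genes. Snr1, the gene of another core subunit, had no listed summit within 1 kb, and its nearest reproducible one was 3823 bp away (404).

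Of the COMPASS-family genes and ash1, only trx had a start summit. Trx methylates H3 in a COMPASS-like complex, and its gene (3R, 14263358 to 14286903, minus strand) had a summit 106 bp upstream of its only start, with 621 (301 in replicate 2 and 328 in replicate 3). The related methyltransferase gene trr, ash2, which encodes a subunit shared by these complexes, the H3 demethylase gene Utx and the methyltransferase gene ash1 had none. Their nearest reproducible summits were 12662 bp (trr), 61132 bp (ash2), 15985 bp (Utx) and 8136 bp (ash1) from a start. The chromodomain helicase gene kis (2L, 210735 to 250823, minus strand) had a summit 132 bp upstream of a start, with 374 (219 and 152).

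The sequences under the start summits carried no exact copy of the CTCF core. The core searched has 9 positions, on both strands and within 50 bp of the summit, and its exact forms are AGAGGGCGC, AGATGGCGC, AGGGGGCGC and AGGTGGCGC. None of the 19 start summits held an exact copy, beside 239 (7.0%) of the 3415 reproducible summits near any start. With 1 mismatch allowed it was in 3 of 19 (15.8%), those of Bap170, mor and the stronger summit of osa, beside 16.8%. With 2 mismatches it was in 9 of 19 (47.4%), beside 41.2%. A share of 3 in 19 is close to what start summits of other genes had.

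To show what these summits hold, the bases within 50 bp of the summit follow for osa and mor, with 1 mismatch, for Pc, with 2 mismatches, and for trx and the intronic summit of ph-p, with more. Capitals mark the best match to the core where it had at most 2 mismatches. Positions in the core are counted from 1 at its 5' end, and the strand is the one on which the match reads as the core, or the plus strand where none is marked. The sequences are from the RefSeq release 6 assembly, which is dm6. The osa window is chr3R:17718593-17718693, minus strand, with the change C9T; the mor window is chr3R:15972584-15972684, minus strand, with G2A. The Pc window is chr3L:21318043-21318143, minus strand, with G5T and C7T. The trx window is chr3R:14286959-14287059 and the ph-p window chrX:2137260-2137360, both on the plus strand.
osa: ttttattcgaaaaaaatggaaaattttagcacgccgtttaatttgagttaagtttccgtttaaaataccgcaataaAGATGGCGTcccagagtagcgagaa
mor: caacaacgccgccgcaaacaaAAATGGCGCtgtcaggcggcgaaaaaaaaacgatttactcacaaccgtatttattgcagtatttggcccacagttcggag
Pc: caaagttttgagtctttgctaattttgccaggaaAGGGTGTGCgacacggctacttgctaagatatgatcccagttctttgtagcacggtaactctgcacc
trx: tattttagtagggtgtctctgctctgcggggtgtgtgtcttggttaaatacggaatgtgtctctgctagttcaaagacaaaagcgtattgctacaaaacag
ph-p: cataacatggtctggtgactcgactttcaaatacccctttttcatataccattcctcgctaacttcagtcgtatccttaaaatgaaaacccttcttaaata

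In osa and mor the capital stretch lay 30 and 25 bp from the summit, and in Pc 12 bp. The osa and mor matches also hold the letters ATGGC, the reverse complement of the Pho core GCCAT. Of the exact forms of the CTCF core, only AGATGGCGC holds these letters, so both motifs can share bases. The other motifs searched were those of proteins known from Polycomb response elements and promoters. The Pho core was within 50 bp of 3 of the 19 start summits (mor, osa and kis), 15.8% beside 19.9% of the summits near any start. The GAGA motif GAGAG was at 2 (10.5% beside 11.2%), the DRE motif TATCGATA at 1, that of Sfmbt (5.26% beside 4.25%), and Motif 1, GGTCACAC, at none, beside 3.78%. The Zeste motif, NGAGNG with C or T at each N, was at 2 (10.5% beside 14.7%). Each of these counts is small, and a missing match says only that the letters were not in this window.

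Start summits of Polycomb and Trithorax group genes lay where such summits lie in general. Of the 19, 15 were upstream of the nearest start of their gene (78.9%, beside 79.2% over all genes with one), 11 lay within 200 bp (57.9% beside 53.2%), and the median distance was 155 bp beside 181 bp. The start of another gene was within 1 kb of the strongest summit at 9 of the 15 genes (60.0%), beside 62.5% of all genes with a start summit. For those 9, namely Pc, E(z), Sfmbt, calypso, brm, mor, Bap60, osa and Bap170, the peak lists do not say to which start the binding belongs. The member's own start was the nearest for 17 of the 19 summits, the exceptions being calypso and Bap60.

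Beyond their starts, 7 of the 32 genes held reproducible summits in the gene body: jing, osa, kis, trx, Kdm2, ph-p and Psc. That is 21.9%, beside 7.03% of protein-coding genes. All 4 members of at least 20 kb (jing, kis, osa and trx) were among them, and 49.2% of the 1013 protein-coding genes of that length had a body summit. Only Psc had a body summit and no start summit, 1 of 32, beside 2.99% of all genes and 3.51% of protein-coding genes. The 7 genes had 17 body summits, of which 16 were intronic and 1, in jing, was in coding sequence. Their median signal was 470 beside 399 for the 19 start summits. All 17 were matched in both replicates within 100 bp, with log2 ratios of replicate 3 to replicate 2 from -0.20 to 0.62.

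**Figure D3:**
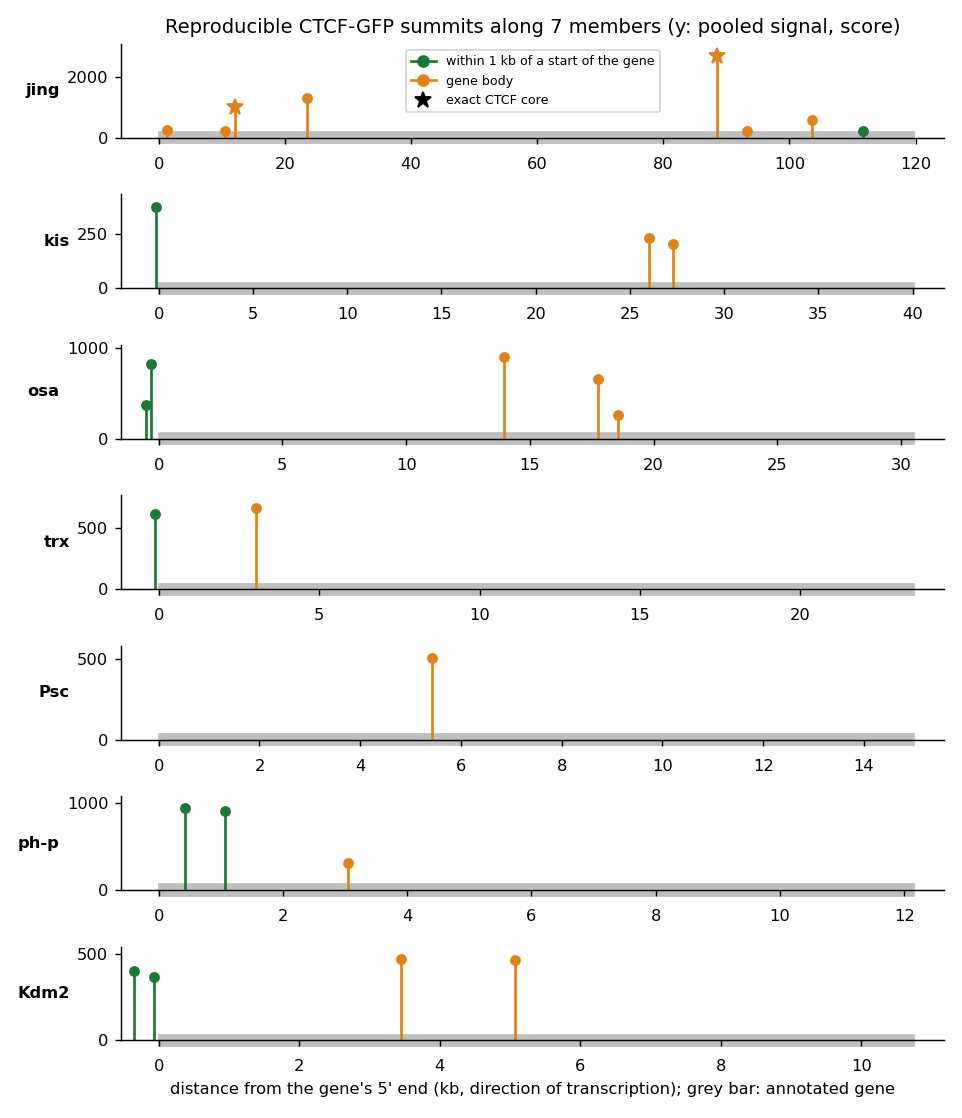
Reproducible CTCF-GFP summits along the 7 genes with a body summit, each on its own scale, by distance from the gene's 5' end (x axis, kb) and pooled signal (y axis). Stars mark summits with an exact CTCF core, which are those of 1010 and 2680 in jing.

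The gene jing held the strongest sites of the whole list, far inside its introns. It is 119787 bp long and had 7 body summits. The strongest, at position 6590445, was 20042 bp upstream of an internal start, with 2680 (1166 in replicate 2 and 1521 in replicate 3), and ranked 623 of 5443. The next were 1308 (620 and 676), 23464 bp inside the 5' start, and 1010 (482 and 528), 12124 bp inside it. All of these lay nearer to the start of another gene. That was CG15233 for the summit of 2680 (10533 bp), lncRNA:CR43905 for 1308 (8125 bp) and lncRNA:CR45127 for 1010 (3835 bp).

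The summits of 2680 and 1010 in jing were the only ones, of the 19 start and 17 body summits of the list, with an exact CTCF core, and that of 602 (272 and 339) had it with 1 mismatch. An exact core was thus at 2 of 17 body summits (11.8%). Of these 17, 13 were also beyond 1 kb of every other gene's start, and 2 of those 13 (15.4%) held the exact core, beside 22.3% of the 2028 reproducible summits in that class. The remaining jing summits were weak, from 230 to 270. Both jing summits with an exact core were higher than every start summit of a repressive gene.

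In osa, 3 intronic summits lay 13935 to 18580 bp inside the gene, with 898 (419 in replicate 2 and 465 in replicate 3), 658 (333 and 340) and 258 (104 and 159). Starts of noncoding RNA genes were close by: the summit of 658 was 158 bp from the start of lncRNA:CR46036, and that of 898 was 720 bp from lncRNA:CR46035. In kis a pair of weak intronic summits, 201 (114 and 104) and 230 (117 and 115), lay 1 bp and 1307 bp from the start of lncRNA:CR44222. At osa and kis the nearest start to a body summit was therefore that of a noncoding RNA and not that of the member. In jing too, each body summit save that in coding sequence lay nearer to the start of another gene.

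In trx the intronic summit 3046 bp inside the start was about as strong as that at the start, 672 (321 in replicate 2 and 338 in replicate 3) beside 621. Kdm2 had 2 such summits, at 2657 bp with 470 (216 and 244) and at 4278 bp with 466 (216 and 255), both above its start summits in the pooled signal. In replicate 2 that order turned for the start summit at 356 bp, which had 239. In Psc (2R, 12965997 to 12980994, minus strand) the summit was 5083 bp inside the gene, with 505 (254 and 252). In ph-p it was 1293 bp from the nearest start, with 311 (151 and 162), the weakest of its 3 summits in each replicate.

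Several members are neighbours on the chromosome, and summits also lay between them. The 2923 bp between ph-d and ph-p held 3, which are both start summits of ph-d and another of 255 (107 in replicate 2 and 138 in replicate 3), farther upstream of ph-d. Between Psc and Su(z)2, genes that point away from each other, lie 15506 bp with 2 summits. The stronger, 4225 bp upstream of Psc, had 822 (397 and 415), and the other, 5100 bp upstream of Su(z)2, had 255 (134 and 107). Bap170 follows jing after 14719 bp, which held summits of 246 (68.9 and 173) and 374 (166 and 205). None of these summits between members held the core with at most 1 mismatch.

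Most of the genes without a reproducible start summit had a weaker one in the pooled list, which holds 30000 peaks from both replicates with no threshold on agreement. With it, 27 of the 32 genes had a start summit (84.4%), beside 62.0% of protein-coding genes. A pooled summit alone was found at 12 genes (37.5%), beside 34.7% of protein-coding genes. Of these 12, 11 were repressive and 1, trr, was activating, a difference between sides that was not tested. The highest were those of Scm (187), esc (182) and Su(z)12 (181), just under the weakest reproducible peak (195). Each replicate also had a summit within 100 bp of these: 98.7 in replicate 2 and 41.4 in replicate 3 for Scm, 96.4 and 95.1 for esc, and 89.8 and 101 for Su(z)12. With replicate 2 left out, Scm had 1 start summit among the 5443 peaks of that setting. The 41.4 at Scm ranked 19973 in replicate 3, so that start summit lay farther than 100 bp from the pooled one.

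The others were weaker: trr (159), phol (144), Su(z)2 (133), Asx (117), Caf1-55 (102), escl (99.7), Pcl (97.9), Sce (97.3) and Psc (92.5). For Sce and Psc the pooled summit had a match in replicate 3 alone, and for Asx in replicate 2 alone. With the pooled list, all 6 PRC1 genes had a start summit. The 5 genes with no listed summit within 1 kb were pho on the repressive side and ash1, ash2, Utx and Snr1 on the activating side. In all, 8 of the 12 activating genes (66.7%) and 19 of the 20 repressive genes (95.0%) had a pooled start summit, beside 62.0% of protein-coding genes. The difference between sides was not tested here either. Read depth is not stated for any list, so a missing summit is one not listed and not evidence that CTCF was absent.

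**Figure D4:**
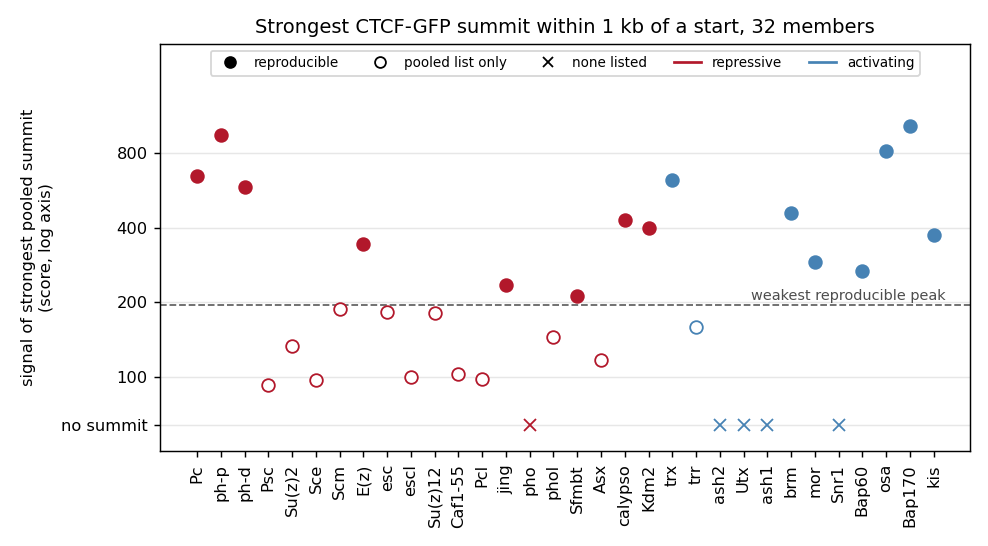
Signal of the strongest pooled CTCF-GFP summit within 1 kb of a start (y axis, log scale) for each of the 32 genes (x axis). Filled points are reproducible (15 genes), open points are in the pooled list alone (12 genes) and crosses mark genes with no listed summit (5 genes); the dashed line is the weakest reproducible peak, 195.

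Genes whose products work with these complexes also had start summits. Of 16 genes related to the repressive side, 11 (68.8%) had a reproducible start summit, beside 24.4% of all genes and 27.3% of protein-coding genes. No difference between these lists and the 32 genes was tested. The strongest were E(Pc), an enhancer of Polycomb that belongs to a histone acetyltransferase complex, with 10069 (4971 in replicate 2 and 5124 in replicate 3), and grh, a transcription factor gene, with 3536 (1632 and 1913). Then came Dsp1, an HMG-box protein gene, with 526 (241 and 283), and the PRC2 cofactor gene Jarid2 with 418 (172 and 249). The summit at E(Pc) held an exact CTCF core and that at grh the core with 1 mismatch.

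Of 27 genes related to the activating side, 15 (55.6%) had one, beside the same 27.3% of protein-coding genes. The strongest was nej, the acetyltransferase gene known as CBP in mammals, with 26659 (12580 and 14143), 858 bp from its nearest start. Next was E(bx), a subunit gene of the NURF remodeller, with 15924 (7612 and 8350), 91 bp from its nearest start. The bromodomain gene fs(1)h had 435 (205 and 237), and Kdm5, also called lid, 329 (135 and 184). The signals at nej, E(bx), E(Pc) and grh were each above that of every start summit among the 32 genes. The median of the strongest start signals was 363 over the repressive-related and 281 over the activating-related genes. It was 429 over the 32 and 331 over all genes with a start summit.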

How the data were processed

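Peak lists on dm6 were used as deposited, with their origin taken from the readme texts deposited with them: a relaxed list of 30000 peaks per replicate, one from both replicates pooled, and the 5443 peaks that passed the authors' irreproducible discovery rate step. Each peak's signal is the score the authors' peak caller deposited, on a scale that is not stated. Per those deposited readme texts, the authors called each relaxed list from aligned reads set against a control. The sources used here do not name aligner, caller or versions, nor read depth. Lists on dm3 were not used here.

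Genes and starts came from Ensembl release 115 (FlyBase annotation 6.54), and names from a RefSeq table of the same assembly. A summit counted for a gene within 1 kb of any of its transcript starts, and otherwise if inside the gene. Replicate values are those of the strongest summit within 100 bp. The 32 genes, the repressive and activating sides, the related genes and the motifs were chosen with earlier results of these data known, so shares are set beside those of all genes with no test. Every one of the 32 was named; of each related list the 4 strongest. The mor sequence, and the comparison with genes of at least 20 kb, were chosen after seeing the data. With 2 replicates of 1 group no p-value was computed. Alternatives were other distances, the 2721 strongest peaks, each replicate alone with 5443 peaks, merged peaks, protein-coding starts and other motif settings. The counting was tested on simulated data. Python 3.11.15, numpy 2.4.6, pandas 2.3.3 and matplotlib 3.10.9 were used.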

Additional observations from a re-analysis of the deposited data

How the results depend on the processing

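The count of 15 genes with a start summit was 11 at 200 bp (14.6% of all genes and 17.5% of protein-coding genes). At 500 bp it was 14 (20.1% and 23.3%), and at 2 kb 16 (31.0% and 33.5%). Among the 2721 strongest peaks it was 10 (11.7% and 12.8%). With 1 replicate left out it ran from 14 to 17, beside 27.2% of protein-coding genes with either left out. The count stayed at 15 with overlapping peaks merged or protein-coding starts alone, beside 27.2% and 27.3% of protein-coding genes. Among the 2721 strongest peaks the repressive count fell from 8 to 5, and the activating count was 5 in place of 7, beside the same 12.8%. At 200 bp the distinct start summits fell from 19 to 11, and with overlapping peaks merged to 17. Genes with a body summit alone were 4 at 200 bp (5.97% of all genes) and 2 among the 2721 strongest peaks (2.71%), in place of 1 (2.99%). Genes with any body summit were 7, and 4 among those of at least 20 kb. Start summits with the core were 3 with 1 mismatch and 0 with the exact core. In all 9 settings 7 genes had a start summit (Pc, ph-d, Kdm2, trx, brm, Bap170 and kis), and 14 had none in any. No share over all genes is given beside these counts. Sfmbt lost its summit without replicate 3, and Scm and trr gained one without replicate 2. Each of these settings held 5443 peaks. The Sfmbt summit ranked 8763 in replicate 2, and the match of the trr pooled summit ranked 5428 in replicate 3. Why the replicates differed there was not tested. No paired analysis was possible because there was only 1 group. Read depth is not stated, so how far it limits the weak peaks could not be assessed.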
